A study of Arabidopsis thaliana with 2 samples.

Results

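The genes described here are the 150 nuclear transcripts with the brightest wild-type signal among those whose signal was nearly the same in both genotypes, in Arabidopsis thaliana rosette leaves under high light. They were picked on the array values themselves. A probe set, the group of short probes that reports 1 transcript, was kept if it named 1 nuclear gene and if its absolute difference, mutant minus wild type on the log2(intensity + 16) scale, was under 0.585, which is about 1.5-fold. The 150 with the highest wild-type intensity were then taken out of 9054 nuclear probe sets naming 1 gene, which stand for 8981 genes, and of 16541 probe sets in all. The genes for 2 glutathione reductases and 2 chloroplast ascorbate peroxidases were left out by the rule, and 0 of them were bright enough to enter. Both the brightness of the members and the small size of their differences are therefore set by the choice. They are given as descriptions, and no test was made.

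Each genotype was measured on 1 array, which its label calls biological replicate 1. The wild type is the Columbia ecotype, and KO-HsfA1d/A1e is a double knockout in the same ecotype that lacks the heat shock factors HsfA1d and HsfA1e. Both genotypes were grown on MS medium under 100 µE per square metre and second, with days of 16 h at 25°C and nights of 8 h at 22°C. At an age of 2 weeks the plants were moved to 400 µE per square metre and second at 25°C, and rosette leaves were taken after 30 min. Plants kept at growth light were not analysed here, and the values therefore hold no response to light. With 1 array a genotype there is no replicate error, no SD between plants and no p-value. No probe set named HsfA1d or HsfA1e alone, so the knockout itself was not checked on the arrays.

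HsfA1d and HsfA1e are heat shock factors of class A1. Such transcription factors bind heat shock elements in promoters and switch on chaperone genes when proteins unfold. Much of the messenger RNA in a green leaf serves other ends. Part of it encodes chloroplast proteins of photosynthesis that are made in the cytosol and imported, and part encodes the ribosomes and enzymes that every growing cell needs. The gene table gives a symbol for 38 of the members and only a locus for 112, and roles given for such loci are background knowledge.

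Wild-type intensities of the 150 members ran from 5412 to 22929, against a median of 334.1 over all probe sets of that array. Mutant intensities ran from 4279 to 25125, against an array median of 331.9. Intensities of different probe sets depend on how well their probes bind as well as on the transcript, so the order of members by intensity is the order of their signals and no ranking of transcript amounts. All 150 members were reported by probe sets whose names carry no mark of shared probes, and the 150 probe sets named 150 different genes.

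The differences were small even within the permitted range. Of the 150 members, 73 lay within 0.1 log2 units of 0, 119 within 0.2 and 145 within 0.4. The middle 50% lay between -0.02 and 0.14 (percentiles 25 and 75), and the SD across members was 0.16. Across the 8161 nuclear probe sets under the same limit the SD was 0.25. Those that were no members were all dimmer, so this comparison is not at like brightness. In the next 150 probe sets under the members the SD was 0.20. Over all 9054 nuclear probe sets naming 1 gene, 9.86% were past the limit, 5.4% with the lower value in the mutant and 4.46% with the higher one.

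More members had the higher value in the mutant than the lower one. There were 102 above 0 and 48 below 0, so 68% were above 0, where 56.4% of all nuclear probe sets under the limit were. The median difference of the members was 0.06 log2 units, and that of all nuclear probe sets under the limit was 0.04. This lean depended on how the arrays were scaled. After loess scaling, which removes any trend of the difference with brightness, the members' median was 0.02 and 78 of 150 were above 0. In the 50 brightest members 32 were above 0, in the next 50 again 32, and in the last 50 there were 38.

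**Figure D1:**
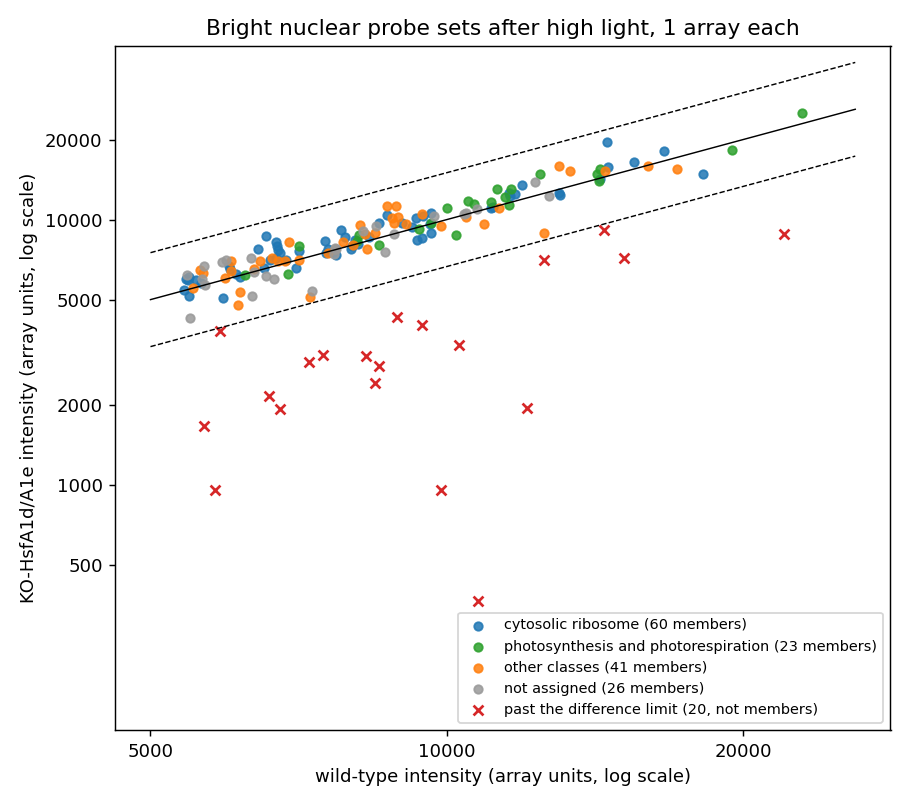
Wild-type intensity (horizontal) against mutant intensity (vertical) for nuclear probe sets naming 1 gene at or above the dimmest member, both on log axes in array units, 1 point per probe set. Members are dots coloured by group, the solid line marks equal values and the dashed lines the difference limit of 0.585. The 20 probe sets past the limit, shown as crosses, all lie on the lower side.

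The 10 brightest members came from several kinds of cell work. RCA, Rubisco activase, which frees the carbon-fixing enzyme Rubisco from blocking sugars, had the strongest signal, with 22929 in wild-type and 25125 in mutant leaves (a log2 difference of 0.13). AT2G26500, a small subunit of the cytochrome complex that passes electrons between the photosystems, had 19506 against 18195 (-0.10). AT2G45180, a protein of the lipid transfer family, had 17122 against 15485 (-0.14). GAPC2, a glyceraldehyde-3-phosphate dehydrogenase of cytosolic glycolysis, had 16008 against 15916 (-0.01). SAMDC, S-adenosylmethionine decarboxylase of polyamine synthesis, had 14485 against 15217 (0.07). The other 5 of the 10 encode proteins of the cytosolic ribosome and are described with it.

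Ribosomal proteins of the cytosol made up the largest class. They form the large and small subunits that translate nuclear messages, and the acidic stalk of the large subunit that recruits elongation factors. Of the 150 members, 60 (40%) belonged to this class, with 35 from the large subunit, 20 from the small subunit and 5 from the stalk. A gene is called measured here if a probe set named it alone. Other genes may be read by probe sets with no name or with several names. A list of 234 loci of cytosolic ribosomal proteins held 124 genes measured here, or 1.38% of the nuclear genes measured, and 48.4% of those 124 were members. Among the 8857 other nuclear genes, 90 (1.02%) were members. The size of a class also depends on how many of its genes were measured. Of 20 listed genes of the light-harvesting antenna, 3 were measured and 2 were members. Of 24 genes of the Calvin-Benson cycle, 3 were measured and all 3 were members. Of 14 actin and tubulin genes, 5 were measured and 0 were members. The list of 234 ribosomal loci, on which the share of 48.4% rests, was written after the members had been seen, from knowledge of these loci.

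Within this class the brightest was AT5G27700, of the small subunit family S21, with 18222 in wild-type and 14899 in mutant leaves. Its difference of -0.29 was the lowest of the class. AT4G39200, of the small subunit family S25, had 16606 against 18155 (0.13), and AT5G20290, of family S8, had 15499 against 16497 (0.09). AT3G49910, of the large subunit family L26, had 14593 against 15772 (0.11). AT1G52300, of the large subunit family L37, had 14544 against 19543, and its difference of 0.43 was the highest of all 150 members. These 5 genes show the range of the class, from a lower to a higher mutant value. The others lay between them, with 43 of the 60 above 0 and 17 below.

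The median difference of the 60 ribosomal members was 0.09 log2 units, and the SD across them was 0.13. The 90 other members had a median of 0.05 and an SD of 0.17. The ribosomal median kept its sign under every scaling and pseudocount tried, from 0.04 after loess to 0.10 after median centring. By part, the large subunit members had a median of 0.04, those of the small subunit 0.11 and those of the stalk 0.14. In the large subunit 26 of 35 were above 0, in the small subunit 13 of 20, and in the stalk 4 of 5.

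The stalk members were few enough to give in full. AT3G09200, the P0 base of the stalk, had 11915 in wild-type and 13479 in mutant leaves (0.18). The P1 protein genes AT1G01100 and AT5G47700 had opposite signs, with 13019 against 12381 (-0.07) for the former and 6727 against 7971 (0.24) for the latter. The P2 protein genes AT2G27710 and AT2G27720 had 6619 against 7025 (0.09) and 6767 against 7465 (0.14). This last pair lies side by side on the chromosome in the TAIR10.1 gene table.

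Arabidopsis encodes most ribosomal proteins by several genes, and 42 of the 80 families on the list had a member. In 18 families 2 genes were members, which sets copies of nearly the same protein beside each other. The gap between the differences of such a pair ran from 0.003 to 0.34 log2 units with a median of 0.16, and it was under 0.2 in 14 of the 18 families. The SD across all ribosomal members was 0.13, and gaps between genes of different families were not computed. These gaps therefore do not show whether copies were more alike than other ribosomal genes. The closest pair was L17, with AT1G67430 at 11719 against 12522 (0.10) and AT1G27400 at 5556 against 5951 (0.10). The widest was L7, where AT2G44120 had 9437 against 8495 (-0.15) and AT2G01250 had 8542 against 9730 (0.19). In 9 of the 18 families the signs of the pair were opposite. Copies of a family can share sequence, and signal from one on the probes of the other was not measured.

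The 64 measured ribosomal genes that were no members were all too dim for the rule. Their wild-type intensities ran from 14.5 to 5282, all under the dimmest member, and their median difference was 0.08, with 51 of 64 above 0. Over all 124 measured genes, the median was 0.08 and 122 were under the limit. The 2 past it were AT5G48760, of family L13a, with 2123 against 3414 (0.68), and the stalk gene AT3G28500, of family P2, with 402.5 against 258.8 (-0.61). Both were named after their values were seen.

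**Figure D2:**
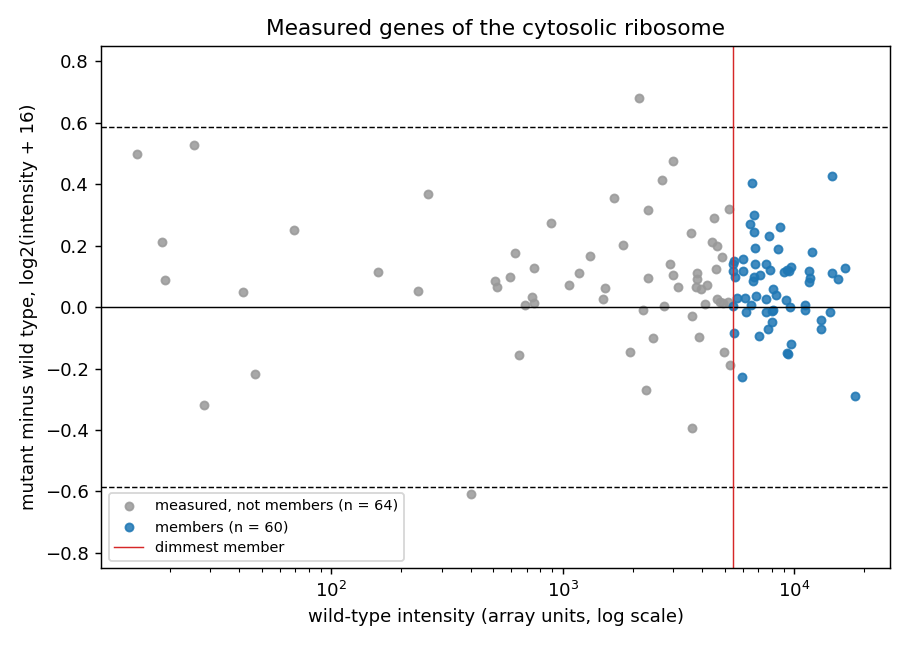
Difference, mutant minus wild type on the log2(intensity + 16) scale, against wild-type intensity (log axis) for the 124 measured genes of cytosolic ribosomal proteins, 1 point per gene. The 60 members lie to the right of the line at the dimmest member, and 1 non-member lies past the dashed limit of 0.585 on each side.

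Other parts of the translation machinery were less numerous. The chloroplast has its own ribosomes of bacterial type, and 8 members were assigned to nuclear-made proteins of that ribosome or its translation. Their differences ran from -0.10 to 0.20 with a median of 0.05, which turned to -0.00017 after loess. AT2G43030, a large subunit protein, had 10469 in wild-type and 10225 in mutant leaves (-0.03), and AT1G29070, also of the large subunit, had 8455 against 8879 (0.07). AT4G01310 had 8294 against 7750 (-0.10) and AT5G65220 had 7693 against 7738 (0.01), both of the large subunit as well. AT5G24490, also known as a plastid ribosomal protein, had been left without a class, with 6337 against 5161 (-0.30). Counted with the others it makes 9 members with a median of 0.02, an alternative chosen after the data were seen. Without it, plastid and cytosolic ribosomal members together with translation factors numbered 70 of the 150.

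The 2 cytosolic translation factors among the members stood far apart. AT5G19510, a subunit of elongation factor 1B that recharges the factor delivering transfer RNA, had 8871 in wild-type and 11260 in mutant leaves (0.34). AT5G54940, an initiation factor of the eIF1 type that helps choose the start codon, had 12560 against 8878 (-0.50). These lie near opposite ends of the members' range. AT5G12110, which encodes another elongation factor 1B subunit, was past the limit with 10285 against 3376 (-1.60), so these genes of 1 protein family had differences of opposite sign. EIF4A2, an RNA helicase of initiation on the fixed list, was under the intensity of the dimmest member with 4610 against 4453 (-0.05).

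Photosynthesis, photorespiration and chlorophyll synthesis supplied 23 members, 15 above 0 and 8 below, with differences between -0.22 and 0.25. Their median was 0.07, close to that of all members. Some cell type markers had also been listed. Of 7 mesophyll markers fixed for the leaf, 2 were measured, RCA and LHCB4.1, and both were members. Membership rests on the brightness that the rule used, so it is no check of the labelled tissue. Among root markers 2 of 6 were measured, PYK10 with 2555 against 3758 (0.55) and the dim LBD16 with 23.3 against 58.4 (0.92). Both had the higher value in the mutant, and their part in the members' values was not tested. In whole leaves, fewer cells of a type and less RNA per cell cannot be told apart.

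The light reactions, in which antenna proteins feed energy to the photosystems and electrons drive ATP and NADPH formation, had 13 members. Their median difference was 0.01, which turned to -0.03 after loess, and the whole class lay between -0.10 and 0.25. Of the antenna, LHCB4.1 had 14279 in wild-type and 13945 in mutant leaves (-0.03), and its sister LHCB4.2 had 11574 against 11304 (-0.03). LHCB4 proteins link the mobile antenna to photosystem II, and both genes had the same small difference. The third measured gene of the family, LHCB4.3, was too dim for the rule with 1379 against 1468 (0.09).

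Photosystem II splits water, and 3 of its 13 listed genes were measured, all of them members. PSBY, which encodes small membrane proteins of the complex, had 14296 against 15493 (0.12). PSB27, an assembly factor, had 9371 against 9239 (-0.02), and PSBW, a small reaction centre subunit, had 6234 against 6184 (-0.01). None differed by more than 0.12 log2 units. The values for photosystem I, which reduces ferredoxin, were somewhat higher in the mutant for both measured genes of 12 listed. PSAE-1, a subunit at the ferredoxin docking side, had 12426 against 14817 (0.25), and PSAN, on the lumen side, had 11622 against 13079 (0.17).

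Of the remaining light-reaction members, ATPC1, the gamma subunit of the chloroplast ATP synthase, had 10513 in wild-type and 11763 in mutant leaves (0.16). AT4G01150, which the gene table also lists as CURT1A, bends the thylakoid membrane at the edges of its stacks and had 11457 against 12175 (0.09). CaS, a calcium sensing protein of the thylakoid, had 7075 against 7932 (0.16). AT3G47070, a phosphoprotein of the thylakoid, had 8530 against 8043 (-0.08), and AT1G51400, a small photosystem II protein, had 9647 against 9730 (0.01). CaS and ATPC1 had the largest differences of these 5. PGRL1B, of cyclic electron flow and no member, had 900.0 against 1142 (0.34).

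**Figure D3:**
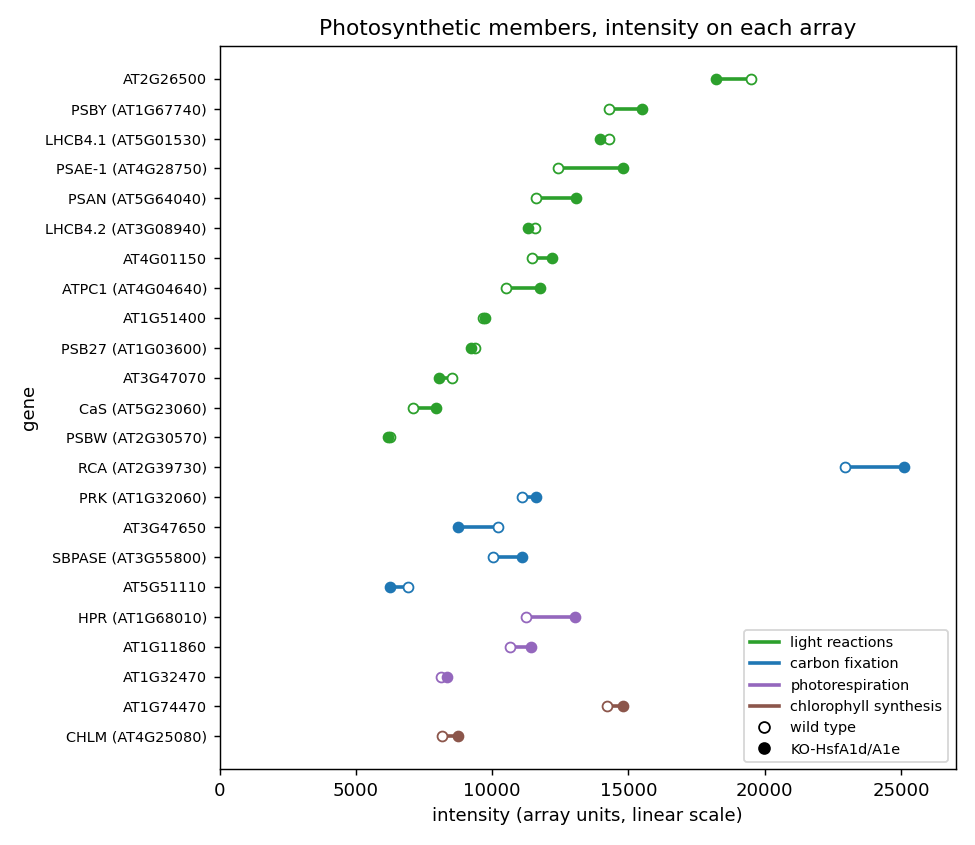
Intensity on a linear scale in array units for the 23 members of photosynthesis, photorespiration and chlorophyll synthesis, with an open circle for the wild-type array and a filled circle for the KO-HsfA1d/A1e array of each gene. The circles of a gene lie close together, and 15 of the 23 filled circles lie to the right of the open ones.

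Carbon fixation had 5 members with a median difference of 0.07. The 3 measured genes of 24 on the list of the Calvin-Benson cycle were all members and all above 0. Beside RCA, PRK, phosphoribulokinase that makes the acceptor of carbon dioxide, had 11093 in wild-type and 11615 in mutant leaves (0.07). SBPASE, sedoheptulose-bisphosphatase of the regeneration phase, had 10014 against 11098 (0.15). The other members help to build Rubisco. AT3G47650, a protein with a zinc finger of the DnaJ type, had 10219 against 8751 (-0.22), and AT5G51110, a Rubisco assembly factor, had 6892 against 6245 (-0.14). The assembly proteins were below 0 under each scaling tried, and PRK and SBPASE above 0, while RCA had a difference of 0 after quantile normalization, which also put the class median at 0.

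Photorespiration salvages the product that Rubisco makes when it binds oxygen, and 3 members belong to it, all above 0 except that AT1G32470 was at -0.01 after loess. HPR, the peroxisomal hydroxypyruvate reductase, had 11238 in wild-type and 13024 in mutant leaves (0.21). AT1G11860, the T protein of the mitochondrial glycine cleavage complex, had 10658 against 11436 (0.10), and AT1G32470, its H protein, had 8108 against 8324 (0.04). The fourth measured gene of 19 listed, glycerate kinase AT1G80380, was too dim for the rule with 3427 against 3624 (0.08). Both chlorophyll synthesis members were above 0 as well. AT1G74470, geranylgeranyl reductase that makes the phytol tail, had 14204 against 14807 (0.06), and CHLM, a methyltransferase of the magnesium branch, had 8149 against 8733 (0.10).

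Central carbon and amino acid metabolism held 7 members with differences between -0.01 and 0.20 and a median of 0.10. Next to GAPC2, the cytosolic triosephosphate isomerase TPI had 9082 in wild-type and 9631 in mutant leaves (0.08). cICDH, a cytosolic isocitrate dehydrogenase that yields NADPH, had 13326 against 15217 (0.19). AT3G58610, ketol-acid reductoisomerase of branched-chain amino acid synthesis, had 9433 against 10536 (0.16). GAPC2 was the only one of the 7 below 0, but it was at 0.001 after median centring, and ALDH11A3 was at -0.04 after loess. The rest were GME, an epimerase on the way to ascorbate (0.20), FDH, formate dehydrogenase (0.10), and ALDH11A3, a cytosolic dehydrogenase of glyceraldehyde-3-phosphate (0.01).

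Polyamine and methionine metabolism supplied 3 members, all above 0 except that SAMDC was at 0 after quantile normalization. SAMDC has been given above, and its relative AT5G15950 had 6917 in wild-type and 8228 in mutant leaves (0.25). ARD4, an acireductone dioxygenase of methionine salvage, had 6458 against 6997 (0.12). Respiration and mitochondrial carriers held 4 members with a median of 0.05. AT4G37830, a subunit of cytochrome c oxidase, had 8170 against 9515 (0.22), and AT5G19760, a carrier of dicarboxylates and tricarboxylates, had 7847 against 8243 (0.07). CYTC-1, a cytochrome c, had 7075 against 7028 (-0.01), and AT3G08610, a small subunit of complex I, had 6849 against 6970 (0.03).

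Without further scaling, redox proteins were the only class with 3 or more members whose median was below 0. Of 5 members 4 were below 0, and their median was -0.18, between -0.22 after loess and -0.17 after median centring. The median depends on how the class was put together. Of 11 genes on the list of redox enzymes, only AT3G11630 was measured, and the other members were assigned by name or known role. GME (0.20) and cICDH (0.19), linked to ascorbate and NADPH, were placed in another class. AOR, an oxidoreductase that detoxifies reactive carbonyls, had 6135 in wild-type and 4783 in mutant leaves (-0.36). GRXC2, a glutaredoxin, had 6169 against 5359 (-0.20), and AT3G11630, a peroxiredoxin of the chloroplast that removes peroxides, had 10910 against 9661 (-0.18). PRXR1, a peroxidase, had 11290 against 11084 (-0.03). The exception was ATHM2, thioredoxin m2 of the chloroplast, with 6369 against 6493 (0.03), which turned to -0.02 after loess.

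Stress-linked and metal-binding proteins had 4 members that reached both ends of the range. TIL, temperature-induced lipocalin, a membrane-associated lipid binder, had 7266 in wild-type and 5108 in mutant leaves, and its difference of -0.51 was the lowest of all members. MT1C, a metallothionein that binds metals through its cysteines, had 8689 against 11266 (0.37). AT1G54410, a small dehydrin listed as HIRD11, had 8844 against 9730 (0.14), and DI19, a zinc finger protein of drought response, had 9859 against 9429 (-0.06). With members so unlike, the median of 0.04 says little of the class, and it turned to -0.01 after loess.

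Smaller groups complete the named classes. In protein turnover, UBC28, a ubiquitin-conjugating enzyme, had 12989 in wild-type and 15961 in mutant leaves (0.30), and APA1, an aspartic proteinase, had 8796 against 10128 (0.20). SWEET11, a sugar exporter of leaf veins, had 7575 against 7460 (-0.02). The RNA-binding RBP45B had 6732 against 7013 (0.06), the actin-binding WLIM2b had 6038 against 6975 (0.21), and AT2G37220, an RNA-binding protein of the chloroplast, had 5657 against 6298 (0.15). LCR69, a small cysteine-rich protein of the defensin family, had 8034 against 8053 (0.00).

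**Figure D4:**
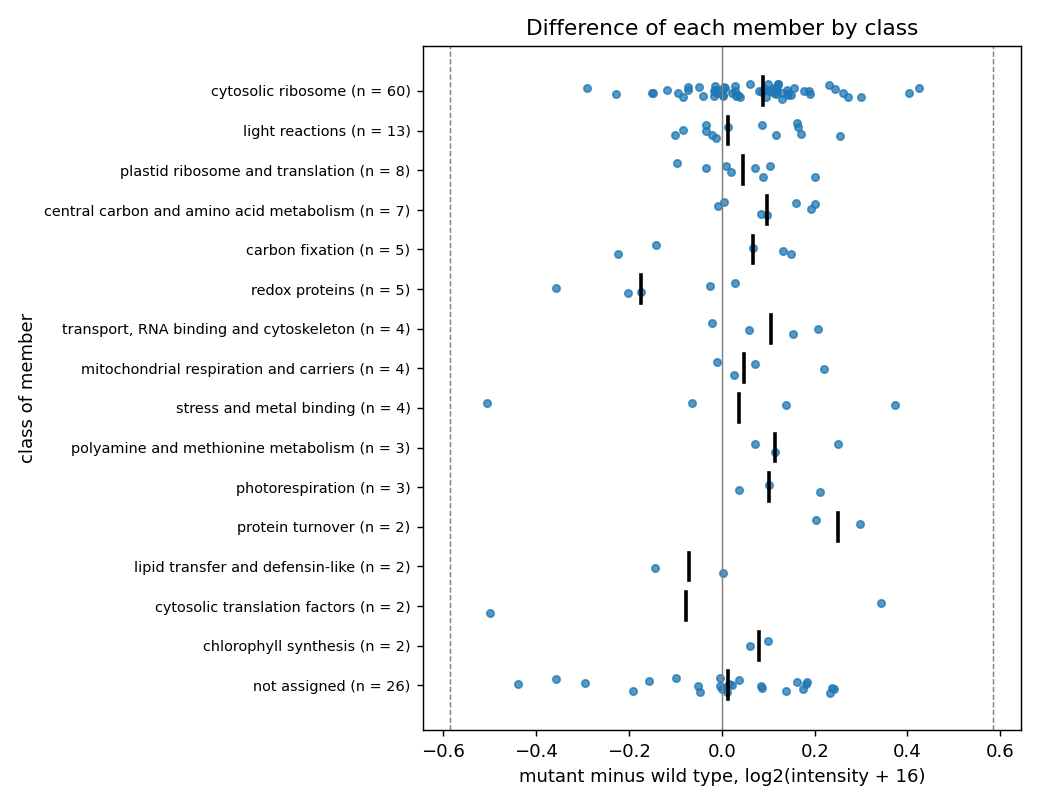
Difference of each of the 150 members, mutant minus wild type on the log2(intensity + 16) scale, by class, with 1 point per gene, a bar at the class median, and dashed lines at the limit of 0.585. The redox class has its median at -0.18, while the cytosolic ribosome has its median at 0.09.

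The remaining 26 members were left without a class. Their differences lay between -0.44 and 0.24 with a median of 0.01, with 16 above 0 and 10 below. The brightest of them were AT3G48140, with 12695 in wild-type and 12280 in mutant leaves (-0.05), AT1G78040, with 12293 against 13880 (0.18), AT4G15545, with 10720 against 11004 (0.04), and AT5G64400, with 10469 against 10577 (0.01). The lowest was AT3G07090, with 7301 against 5379 (-0.44), and then came AT2G47710, with 5486 against 4279 (-0.36).

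At the ends of the permitted range, the 5 lowest differences belonged to TIL, AT5G54940, AT3G07090, AOR and AT2G47710. The 5 highest belonged to AT1G52300, AT4G27090, MT1C, AT5G19510 and AT3G56340. AT4G27090, of the large subunit family L14, had 6552 in wild-type and 8676 in mutant leaves (0.40), and AT3G56340, of the small subunit family S26, had 6710 against 8260 (0.30). Ribosomal proteins or translation factors thus made up 4 of the 5 highest. Among the 5 lowest, AT5G54940 was the only one of that kind. Plastid and cytosolic ribosomal members with translation factors were 70 of all 150 members, so several among any 5 are no surprise. Counts among 5 members are too small to show a lean of these genes to either end, and none was tested.

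The limits of the choice had neighbours on both sides. The dimmest members were AT4G29410 (5461 in the wild type), AT2G14910 (5443), AT5G27770 (5434) and AT5G47930 (5412). Just under them lay AT5G58330 (5387), AT4G10300 (5375), AT2G05540 (5354) and AT5G08050 (5353), with differences from -0.17 to 0.23. Along the difference, TIL at -0.51 was the member nearest the limit. Just outside were AT1G67865, with 5884 against 3803 (-0.63), and AT1G54050, a small heat shock protein, with 14449 against 9172 (-0.65).

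The limit removed 20 of the 170 nuclear probe sets at or above the dimmest member, and all 20 had the lower value in the mutant. That is 11.8% of the bright probe sets on the lower side, where 5.4% of all 9054 lay, and 0 on the higher side, where 4.46% of all lay. The wild-type value is part of the difference, so picking on it favours lower mutant values in advance. The counts are therefore a description of the choice. At 2-fold, 17 of the 170 (10%) were lower and 0 higher, against 2.07% and 0.806% of all, or 2.87% in either direction. Ratios of wild-type to mutant intensity among the 20 ran from 1.55 to 29.4, the largest for AT3G22240, with 10759 against 366.2. Next came AT2G29500, a small heat shock protein (9873 against 965.2), AT5G48570, the peptidyl-prolyl isomerase ROF2 (12073 against 1955), and AT5G37670, a small heat shock protein of the peroxisome (5818 against 963.3).

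Ranking on the wild type leaves out, by construction, transcripts that are bright only in the mutant. Ranking on the mutant favours higher mutant values in turn. Ranked by mutant intensity instead, 155 nuclear probe sets lay at or above the dimmest of the 150 chosen that way, at 5543. Of these, 4 were past the limit on the lower side and 1 on the higher side, where 5.4% and 4.46% of all 9054 nuclear probe sets lay. The lower ones were AT2G25510, ECS1, the HSP70 gene AT3G09440 and AT1G54050, with differences from -1.32 to -0.65. The higher one was AT5G43460, with 4687 against 7315 (0.64), and it was picked out for its value. At or above 5412 in the wild type or 5543 in the mutant, the dimmest value of each choice, lay 180 probe sets. Past the limit were 20 of them with the lower value in the mutant and 1 with the higher.

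Both rankings gave nearly the same genes, which the shared limit of about 1.5-fold between the arrays largely fixes in advance. Of the 150 members, 141 were also chosen when mutant intensity set the order, and the median difference of that choice was 0.09. The cytosolic ribosome then supplied 58 genes. The next 150 probe sets under the members, down to a wild-type intensity of 3535, had a median difference of 0.01 and an SD of 0.20, with 77 above 0. In that band, also set on the wild type, 10 of 162 nuclear probe sets were past the limit on the lower side and 1 on the higher side.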

How the data were processed

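Total RNA of rosette leaves was profiled on Affymetrix arrays from 100 ng of RNA, 1 array for each genotype, per the labels' protocols. The authors deposited 1 linear intensity for each probe set on each array, and how the authors summarized, background-corrected, scaled or filtered them is not given in the sources used here. Depth does not apply to arrays, and their number limits the precision. Names were taken from the annotation of the array platform, whose symbols may be out of date. It names 1 gene for 9139 probe sets, several for 340 and none for 7062, and 9095 were found by Entrez identifier in the gene table of TAIR10.1. For 21 others the annotation's own symbol was a nuclear locus and was used. Of the 530 probe sets at or above the dimmest member, 326 had no name, 28 had several and 6 were not nuclear, so many abundant leaf transcripts are not among the members.

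Differences were computed as log2(intensity + 16), mutant minus wild type, in Python 3.11.15 with pandas 2.3.3, numpy 2.4.6 and statsmodels 0.14.6, and the selection was checked on simulated data. Where several probe sets named a gene outside the members, the one with the highest mean was used. Classes and roles of loci without a symbol, and the 234 ribosomal loci, come from general knowledge of Arabidopsis loci and not from the files. The members, classes and lists were chosen with earlier results of these data known. Of 17 gene lists and 6 marker lists written at the outset, 6 gene lists had 0 measured genes: aquaporins, ubiquitin, methionine cycle, myrosinase, lipid transfer and jasmonate. Neither vascular nor seed storage markers were named alone by a probe set. Of the lists with few measured genes, the guard cell marker FMA had 339.7 against 316.3 (-0.10) and the dividing cell marker AUR1 156.4 against 166.3 (0.08). The 5 measured actin and tubulin genes, none of them members, had a median of 0.01.

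The rule for named genes took the 10 brightest members, the 4 dimmest and the next 4 under them, the 5 highest and 5 lowest differences, up to 4 of the brightest of each class, up to 4 of the bright probe sets that the limit removed in each direction, and the measured non-members of lists with 3 or more members. Other names were chosen after their values were seen. Alternatives were pseudocounts of 1 and 64, median centring, quantile normalization, loess (span 0.3), 100 or 200 members, limits of 1.2-fold and 2-fold, ranking on the mutant, and leaving out probe sets with shared probes. Promoter and protein features were not analysed here.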

Additional observations from a re-analysis of the deposited data

How the results depend on the processing

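No paired analysis was possible because there is 1 array for each genotype, and no replicate could be left out. Under pseudocounts of 1 and 64, median centring, quantile normalization and loess, the same 150 members were chosen and 20 bright probe sets stayed past the limit, 0 of them higher in the mutant. Each of these settings kept the ranking on the wild type, which favours lower mutant values in advance. The members' median difference lay between 0.02 (loess) and 0.09 (ranking on the mutant) over all alternatives. The count above 0 was 102, and it was 106 after median centring, 105 after quantile normalization and 78 after loess. A limit of 1.2-fold kept 136 of the members and a limit of 2-fold kept 147. With 100 members the cytosolic ribosome supplied 38 in place of 60, from a smaller set by construction, and with 200 it supplied 70. After loess the class medians turned sign for light reactions (-0.035), plastid ribosome and translation (-0.00017) and stress and metal binding (-0.010), and the cause was not tested. The carbon fixation median was 0 after quantile normalization. Of 115 alternative values, 111 differed from the reported value by less than the spread of the members or, for counts, by at most 1.5 times, without turning sign. This was a loose measure. The SD across members, 0.16, was larger than most of the medians compared, so mainly a change of sign could fail. The members shared with choices of 100 or 200, or without shared probes, were fixed by construction. The motif shares in promoters that were planned were not run. The arrays carry no detection calls, and saturation of the brightest probe sets was not measured.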

Other observations

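The members were spread over all 5 chromosomes much as the measured nuclear genes were, with 37, 23, 39, 20 and 31 members on chromosomes 1 to 5. Chromosome 3 held 26% of the members and 20.6% of the 8981 nuclear genes measured, and chromosome 5 held 20.7% against 23.8%. Only 1 pair of members, the stalk genes AT2G27710 and AT2G27720, were direct neighbours among protein-coding genes in the TAIR10.1 gene table.

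A second probe set named a member alone in only 1 case, AT4G16980. The member probe set had 8848 in wild-type and 8820 in mutant leaves (-0.004), and the other had 39.04 against 20.5 (-0.59). These 2 readings of the same gene differ in both level and difference.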
